A study of Mus musculus with 18 samples.

Results

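The genes described here encode the contractile apparatus of striated muscle: 41 genes for sarcomere proteins, for the proteins that couple excitation to contraction, and for factors that assemble the sarcomere. They were chosen by symbol, and all 41 were found among the 23927 gene names listed for each library. RNA-seq was done on C57BL/6 mouse embryos at embryonic day 9.5 (E9.5), E11.5 and E12.5. The wild-type group (WT) was compared at each stage with embryos that lacked both copies of Pitx1 (Pitx1-/-, KO), a homeodomain transcription factor of the hindlimb. The tissue was the hindlimb at the later stages, and at E9.5 the hindlimb field with the trunk attached to it. There were 18 libraries in 6 groups of 3, and the groups of a stage differed by label in genotype alone. The labels name a plain null genotype with no driver or agent, and they do not say whether the libraries of a group came from separate embryos, pools or litters, so the p-values measure the spread between these libraries, which may be technical in part.

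In a sarcomere, thick filaments of myosin slide along thin filaments of actin. Calcium released from the sarcoplasmic reticulum binds troponin, which moves tropomyosin on the thin filament and lets myosin heads attach. The limb's muscle cells come from the somites: precursors migrate into the limb bud, proliferate, and switch on these genes when they leave the cell cycle and differentiate under MyoD-family factors, which bind E-boxes in DNA. Embryonic muscle also uses isoforms that are better known from the adult heart, such as cardiac actin (Actc1) and the atrial light chain Myl4, and the smooth muscle actin Acta2 is made early in differentiating striated muscle too.

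The libraries held 14361919 to 60672151 fragments. In RPKM (fragments scaled to gene length and to library size), Pitx1 itself was 48.5 to 58.8 in the WT libraries and 18.3 to 25.0 in the KO libraries at E9.5, 109 to 138 and 17.3 to 23.2 at E11.5, and 44.6 to 114 and 10.8 to 13.4 at E12.5. It was lower in every KO library than in any WT library of its stage, and the 44.6 belonged to E12.5 WT replicate 3. The summed RPKM of 8 limb mesenchyme markers was 625 to 675 in WT and 665 to 749 in KO at E11.5, and 601 to 669 and 633 to 682 at E12.5. Of these 8, the edgeR test described below called 1 lower and 2 higher in KO at E11.5, and 1 lower at E12.5. The shares over all genes were 1.01% lower and 0.945% higher at E11.5, and 0.0138% lower at E12.5. The sums thus do not speak for each marker. The heart marker Nppa was at 0 in all 18 libraries, and the summed RPKM of 10 heart markers was at most 2.92 at E11.5 and 3.10 at E12.5, and 7.50 to 10.4 in WT and 7.73 to 10.4 in KO at E9.5.

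**Figure D1:**
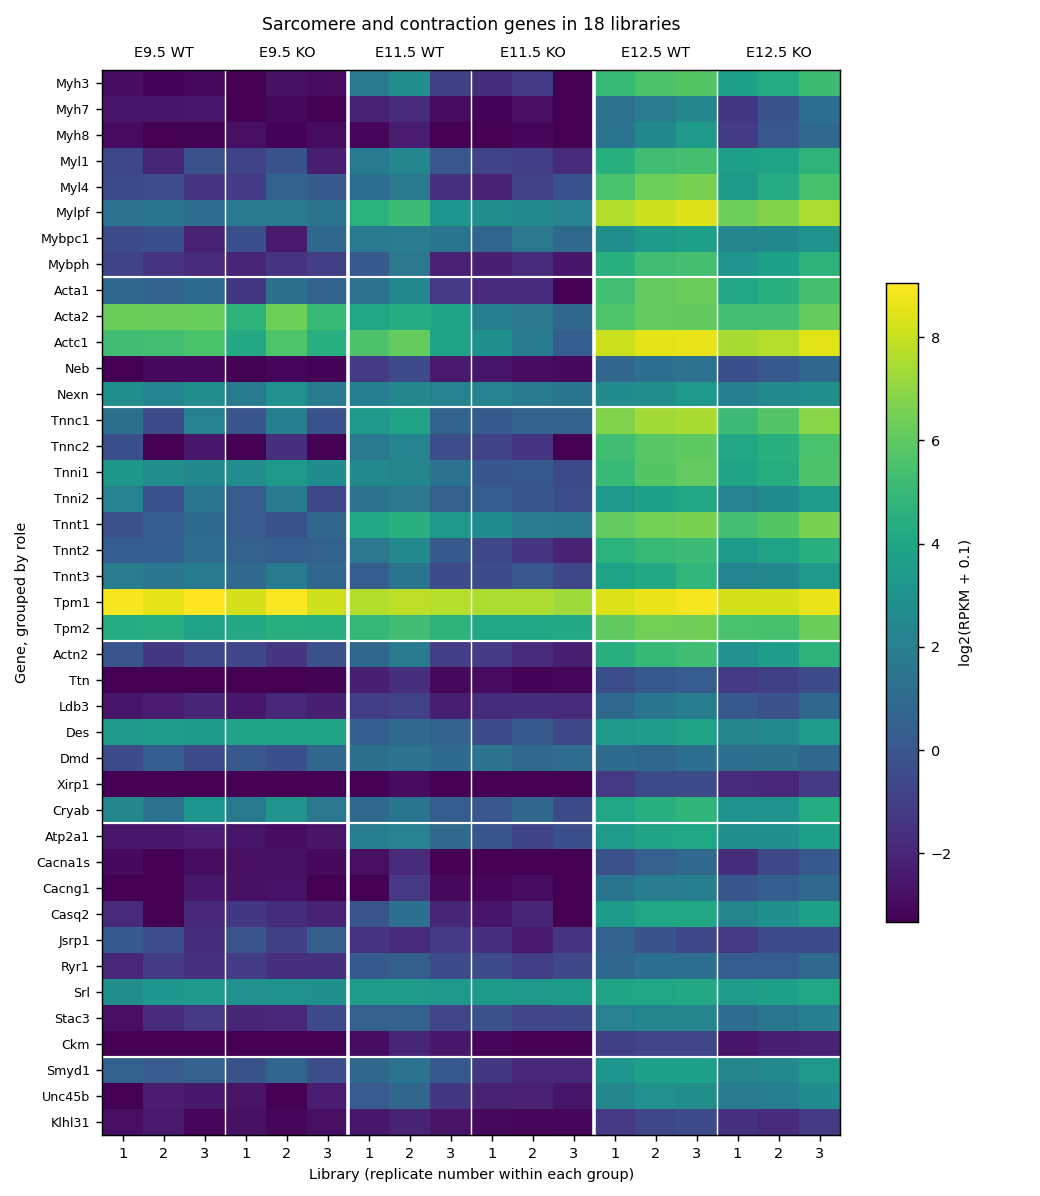
Levels of the 41 genes in each of the 18 libraries, as log2(RPKM + 0.1); columns are libraries by group, rows are genes in 6 role groups separated by white lines (from the top: thick filament, thin filament, troponin and tropomyosin, Z-disc with giant and membrane-linking proteins, calcium handling and energy, assembly and other). Most genes are brightest at E12.5, and within E11.5 WT, replicate 2 is the brightest and replicate 3 the darkest column for most genes.

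At E11.5 the contractile genes were lower in the KO hindlimb. Of the 41 genes, 36 had enough fragments to test, and all 36 had a negative log2 fold change, with a median of -2.27 against -0.013 over all 14601 genes tested. In edgeR's quasi-likelihood test with Benjamini-Hochberg adjustment over all genes, 7 of the 36 passed the threshold of 0.05, all lower in KO: Acta2, Tnni1, Tpm2, Myl1, Atp2a1, Unc45b and Smyd1. The background was 1.01% of all tested genes called lower. At an unadjusted p under 0.05 there were 28 of the 36, beside 11.1% of all genes lower at that p. The filter on low values asked for a minimum in 3 libraries. Of the 36 genes, 24 reached it in all 3 KO libraries. The other 12 passed with the help of WT libraries, so that their sign and separation are in part set by the filter. Myl1 and Unc45b, both called, were among these 12. In whole tissue, fewer muscle cells and less RNA per muscle cell cannot be told apart, here and in every comparison that follows. The 5 genes too low to test were Cacna1s, Cacng1, Ckm, Myh8 and Xirp1.

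The regions just upstream of the 7 called genes are shown because these genes moved together and E-boxes are the known binding element of the MyoD family. Each line gives the 250 bases before the annotated start, 5′ to 3′ on the gene's strand, from RefSeq on build GRCm38.p6, with every E-box (CANNTG, which reads as CANNTG on both strands) in capitals.
Acta2: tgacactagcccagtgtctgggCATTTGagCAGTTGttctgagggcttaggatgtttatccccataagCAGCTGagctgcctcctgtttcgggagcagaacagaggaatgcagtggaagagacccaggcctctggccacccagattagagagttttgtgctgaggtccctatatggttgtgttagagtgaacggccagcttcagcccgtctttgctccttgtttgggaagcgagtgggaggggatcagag
Tnni1: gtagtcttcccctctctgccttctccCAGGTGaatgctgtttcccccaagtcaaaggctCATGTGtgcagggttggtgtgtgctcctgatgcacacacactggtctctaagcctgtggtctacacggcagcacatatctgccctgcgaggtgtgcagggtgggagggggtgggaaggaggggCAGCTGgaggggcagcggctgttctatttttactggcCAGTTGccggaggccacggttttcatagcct
Tpm2: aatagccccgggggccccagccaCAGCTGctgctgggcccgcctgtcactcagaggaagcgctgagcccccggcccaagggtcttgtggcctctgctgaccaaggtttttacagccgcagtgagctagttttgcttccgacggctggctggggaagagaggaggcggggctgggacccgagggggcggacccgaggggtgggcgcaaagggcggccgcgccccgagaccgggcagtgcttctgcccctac
Myl1: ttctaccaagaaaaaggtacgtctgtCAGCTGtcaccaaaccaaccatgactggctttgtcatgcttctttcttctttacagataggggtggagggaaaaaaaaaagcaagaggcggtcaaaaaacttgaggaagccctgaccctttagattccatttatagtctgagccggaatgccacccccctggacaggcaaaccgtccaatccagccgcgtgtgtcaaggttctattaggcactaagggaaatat
Atp2a1: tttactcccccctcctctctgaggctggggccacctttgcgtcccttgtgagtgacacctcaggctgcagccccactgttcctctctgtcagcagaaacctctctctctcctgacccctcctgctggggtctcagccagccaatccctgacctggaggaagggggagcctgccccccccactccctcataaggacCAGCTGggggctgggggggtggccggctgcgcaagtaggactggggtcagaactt
Unc45b: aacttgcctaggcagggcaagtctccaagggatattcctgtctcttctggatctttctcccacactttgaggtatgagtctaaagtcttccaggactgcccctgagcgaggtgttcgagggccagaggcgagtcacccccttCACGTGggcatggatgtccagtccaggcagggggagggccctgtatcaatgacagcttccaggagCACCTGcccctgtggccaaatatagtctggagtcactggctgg
Smyd1: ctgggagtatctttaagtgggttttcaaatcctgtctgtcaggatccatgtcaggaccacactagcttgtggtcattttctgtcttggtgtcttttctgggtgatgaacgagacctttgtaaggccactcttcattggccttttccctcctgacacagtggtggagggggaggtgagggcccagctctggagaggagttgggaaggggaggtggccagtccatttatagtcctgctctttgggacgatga
The Acta2 window is chr19:34255374-34255623 on the minus strand and the Tnni1 window is chr1:135799171-135799420 on the plus strand, the first of 2 entries for Tnni1. Tpm2 is at chr4:43523555-43523804, Myl1 at chr1:66945057-66945306, Atp2a1 at chr7:126463074-126463323 and Smyd1 at chr6:71262282-71262531, all on the minus strand, and Unc45b is at chr11:82911003-82911252 on the plus strand. Acta2 has 3 E-boxes in this window, Tnni1 has 4, Unc45b has 2, Tpm2, Myl1 and Atp2a1 have 1 each, and Smyd1 has 0. The form CAGCTG, which is one kind of CANNTG, occurs once in Acta2, Tnni1, Tpm2, Myl1 and Atp2a1. On either strand TATAAA, the letters of the TATA motif, occurs in the windows of Myl1, apart from its E-box, and Smyd1, and in 0 of the other 5. TAATCC, the core recognised by PITX-type homeodomains, occurs in 0 of the 7 windows.

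Among promoter entries of 250 bases before to 50 after the start, 31 of the 41 genes matched, with 36 entries. Motifs were counted only in the 250 bases before the start of each entry. CANNTG was present in 77.8% of these entries and in 66.2% of all 32851 entries of the same length. CAGCTG was present in 38.9% of the entries of the contractile genes and 13.0% of all entries. The CArG box, the element of serum response factor, was present in 13.9% and 1.47%, the MEF2 site in 11.1% and 2.92%, and TATAAA in 22.2% and 12.4%. TAATCC was present in 5.56% and 6.25%. All were searched on both strands, and a match describes letters in a window and not a bound site.

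Acta2, the smooth muscle actin, was measured at 16.0, 19.9 and 15.1 RPKM in the E11.5 WT libraries and at 3.81, 2.92 and 1.67 in KO. The groups did not overlap, and the log2 fold change was -2.59 (SE 0.29, edgeR adjusted p = 0.0208). Actc1, the cardiac actin that dominates embryonic skeletal muscle, was at 48.6, 70.9 and 14.1 RPKM in WT and at 7.31, 3.19 and 1.19 in KO. Every KO library was below every WT library, and the difference of -3.49 (SE 0.93) did not pass the test (edgeR adjusted p = 0.128). The other thin filament genes were the skeletal actin Acta1, the giant ruler protein nebulin (Neb) and the actin-binding Nexn, with log2 fold changes of -4.26, -3.15 and -0.33, none called. Acta1 was listed at 0 in KO replicate 3.

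Among the regulatory proteins of the thin filament, Tnni1, the slow isoform of the inhibitory troponin subunit, had 5.64, 4.98 and 2.56 RPKM in WT and 0.893, 0.958 and 0.589 in KO. The lowest WT library was above the highest KO library, and Tnni1 fell by 2.44 on the log2 scale (SE 0.36, edgeR adjusted p = 0.0188). Tpm2, the beta tropomyosin, had 29.9, 38.5 and 25.2 RPKM in WT and 17.2, 16.7 and 19.1 in KO. Its fall was the smallest of the 7, at 0.95 on the log2 scale (-0.95, SE 0.16, edgeR adjusted p = 0.0276). Tpm1, the alpha tropomyosin that many other cell types also make, was the most abundant gene of the set and stood at 199, 226 and 205 RPKM in WT and 183, 188 and 150 in KO. Those groups did not overlap either, at a difference of -0.26 (SE 0.10) that was not called (edgeR adjusted p = 0.166). Tnnc1, the slow and cardiac troponin C, had 9.99, 13.9 and 1.45 RPKM in WT and 1.03, 1.45 and 1.42 in KO. Its WT replicate 3 lay next to the KO libraries. The other troponins, Tnnc2, Tnni2, Tnnt1, Tnnt2 and Tnnt3, had log2 fold changes from -3.39 to -1.05, none called; the adjusted p was 0.0528 for Tnnt2 and 0.0556 for Tnnt1 in the edgeR test.

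In the thick filament, Myl1, the essential light chain of fast muscle, had 3.27, 5.199 and 0.942 RPKM in WT and 0.456, 0.384 and 0.175 in KO. The groups did not overlap, and Myl1 fell by 3.22 on the log2 scale (SE 0.65, edgeR adjusted p = 0.0466). With 5 fragments in KO replicate 3, Myl1 passed the filter with the help of WT libraries. Its sign and separation are thus in part set by the filter. Mylpf, the fast regulatory light chain and the most abundant gene of the thick filament, had 23.9, 36.2 and 9.08 RPKM in WT and 6.89, 5.55 and 4.51 in KO. Its groups were also separate, with a difference of -2.02 (SE 0.50, edgeR adjusted p = 0.0911). Myl4, the atrial and embryonic light chain, had 2.09, 2.98 and 0.248 RPKM in WT and 0.137, 0.424 and 0.756 in KO. Here WT replicate 3 was below 2 of the KO libraries. The embryonic heavy chain Myh3, the slow heavy chain Myh7 and the binding proteins Mybph and Mybpc1 had log2 fold changes of -4.14, -2.69, -3.38 and -0.64, none called. Myl1 shares 23.4% of its 50-base windows with a pseudogene transcript in GENCODE M21, Myh7 shares 22.2% with other genes (most with Myh6), Myh8 21.4% (most with Myh2) and Myh3 4.81%, so their fragments may be split among copies; Acta1 shares 2.22%, and Acta2, Atp2a1 and Actn2 less than that.

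For calcium handling, Atp2a1, the pump SERCA1 that returns calcium to the sarcoplasmic reticulum, had 3.89, 4.35 and 1.82 RPKM in WT and 0.883, 0.487 and 0.703 in KO. The lowest WT library was above all KO libraries, at a log2 fold change of -2.28 (SE 0.35, edgeR adjusted p = 0.0247). Srl, or sarcalumenin, a calcium-binding protein of the reticulum, had 11.1, 11.4 and 9.74 RPKM in WT and 10.5, 10.2 and 10.5 in KO. Those groups overlapped, and the difference was -0.05 (SE 0.08). The calsequestrin Casq2, the release channel Ryr1, Stac3 and Jsrp1 had log2 fold changes of -3.83, -0.90, -0.82 and -0.45, none called. Cacna1s, the voltage sensor, was listed at 0 in all KO libraries and at 0.0433, 0.189 and 0 RPKM in WT.

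Of the 3 assembly genes, 2 were called. Smyd1, a lysine methyltransferase required for myofibril assembly, had 1.73, 2.50 and 0.951 RPKM in WT and 0.303, 0.163 and 0.157 in KO. The groups did not overlap, and Smyd1 fell by 3.04 on the log2 scale (SE 0.42, edgeR adjusted p = 0.0153), the lowest adjusted p of the set. Unc45b, the myosin chaperone, had 1.07, 1.62 and 0.307 RPKM in WT and 0.129, 0.119 and 0.0635 in KO. Its log2 fold change was -3.24 (SE 0.60, edgeR adjusted p = 0.0380). With 10 fragments in KO replicate 3, Unc45b too passed the filter with the help of WT libraries, which in part sets its sign and separation. Klhl31, a kelch protein of muscle, was near 0 in both genotypes, at a mean of 0.0870 RPKM in WT and 0.0176 in KO, with a difference of -2.27 (edgeR adjusted p = 0.0608).

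None of the 6 tested genes for the Z-disc, giant and membrane-linking proteins passed. The alpha-actinin Actn2, which crosslinks thin filaments at the Z-disc, had 1.68, 3.22 and 0.378 RPKM in WT and 0.350, 0.189 and 0.107 in KO. These groups were separate by a narrow margin, at -3.00 (SE 0.83, edgeR adjusted p = 0.116). Cryab, a small heat shock protein that binds desmin and titin, had 1.77, 2.72 and 1.12 RPKM in WT and 0.928, 1.62 and 0.639 in KO, and its groups overlapped. Titin (Ttn), Ldb3, the intermediate filament desmin (Des) and dystrophin (Dmd) had differences of -2.78, -0.57, -1.04 and -0.06.

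**Figure D2:**
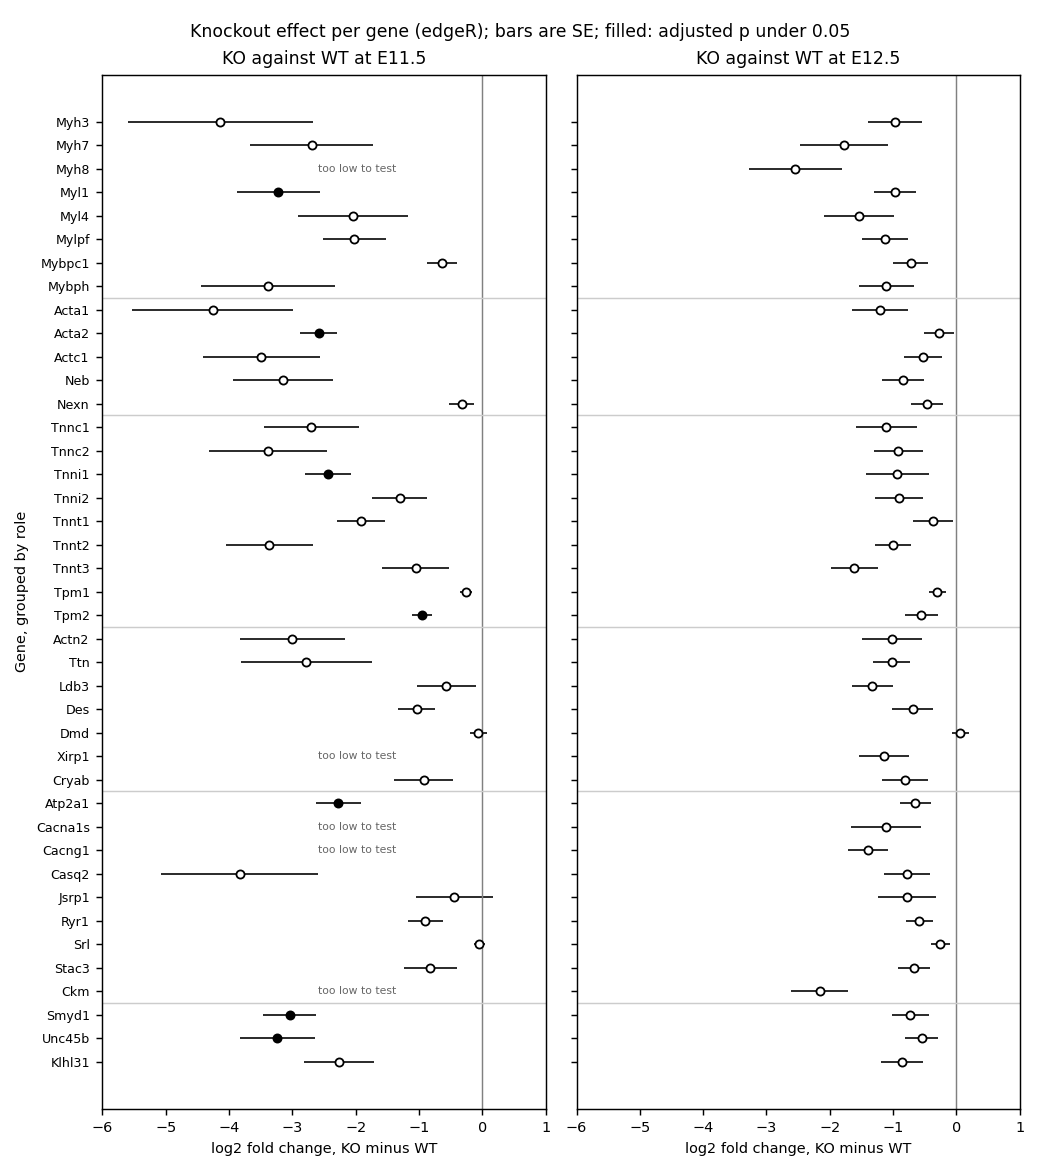
Difference between KO and WT per gene at E11.5 (left) and E12.5 (right), as edgeR log2 fold change with SE bars; filled points have an adjusted p under 0.05. At E11.5 the 36 tested genes lie below 0 and 7 are filled; at E12.5, 40 of 41 lie below 0 and none is filled.

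The E11.5 WT libraries differed among themselves in these genes. WT replicate 2 was the highest WT library for 34 of the 36 tested genes and replicate 3 the lowest for 32. In 13 of the 36, WT replicate 3 was at or under the highest KO library. In CPM, raw fragments scaled to the library total and summed over the set without Tpm1, the level was 449, 614 and 269 in the WT libraries and 207, 172 and 168 in KO, so the sums did not overlap. The median SD of log2(RPKM + 0.1) among the WT libraries was 0.69 for the tested members and 0.14 over all genes tested; in KO it was 0.37 and 0.13. In 22 of the 36 genes every KO library was below every WT library, where the background was 14.0% of all tested genes. Among the 22, Acta1, Casq2, Klhl31, Myh3, Myl1, Tnnc2, Tnnt2 and Unc45b passed the filter with the help of WT libraries. Their separation is thus in part set by the filter. WT replicate 3 also stood apart in the smooth muscle marker Tagln, at 15.2 RPKM against 1.98 and 4.37 in the other WT libraries and 1.40 to 3.61 in KO; its part in the result was not tested.

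The number of called genes depended on single libraries. Without WT replicate 3 it was 19, without WT replicate 1 it was 0 and without WT replicate 2 it was 3. Leaving out KO replicate 2 gave 2, KO replicate 3 gave 1 and KO replicate 1 gave 7. The direction was negative for the 15 genes described by library under every one of these omissions. The share of all genes called lower is not given for these omissions, so the counts do not show whether other genes moved alike. DESeq2 called 19, beside 4.63% of all genes, and a fit over all 18 libraries 21, beside 1.97%, with all of them lower in KO. The 21, and the 19 without WT replicate 3, include Cacna1s, listed above as too low to test. Having no fragment in any E11.5 KO library, Cacna1s entered these fits only through libraries of other groups, so its sign is fixed by the filter.

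**Figure D3:**
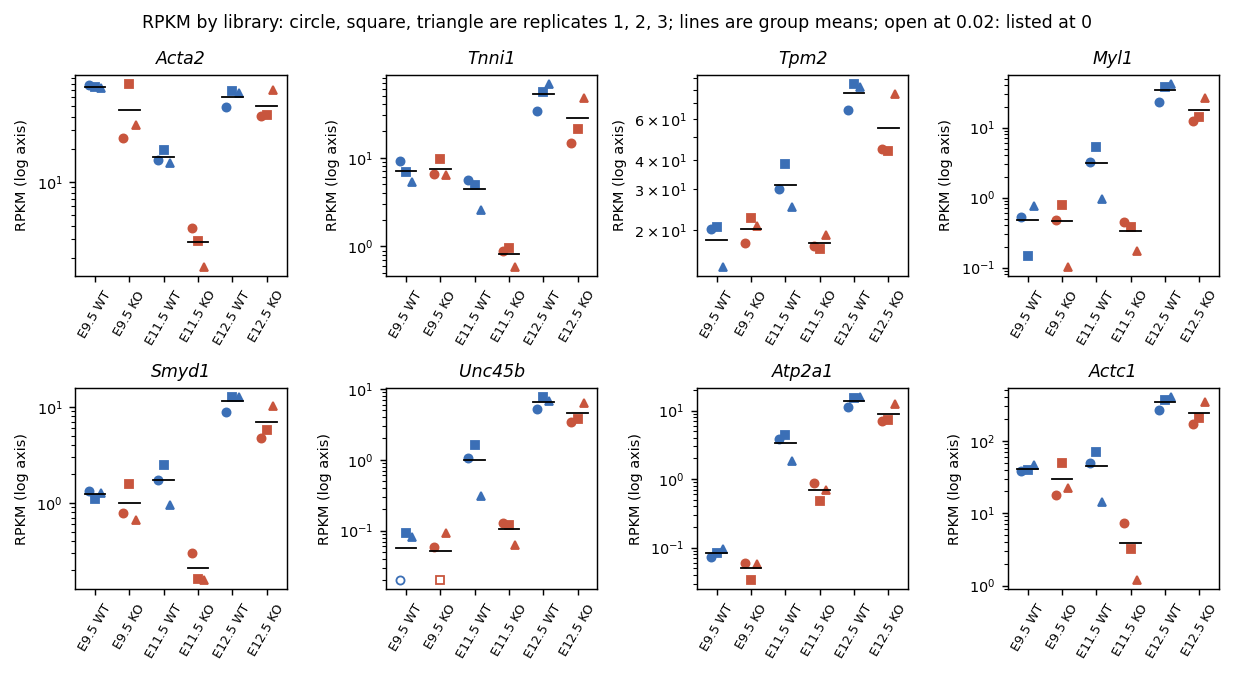
RPKM in each library (log axis) of the 7 genes called at E11.5 and of Actc1, by stage and genotype; circles, squares and triangles are replicates 1, 2 and 3, lines are group means, and open points drawn at 0.02 are listed at 0. At E11.5 the KO points lie under the WT points in all 8 panels; at E12.5 the KO triangle lies within or above the WT points.

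At E12.5 all 41 genes could be tested, 40 had a negative log2 fold change between KO and WT, and none was called. The exception in sign was Dmd, at 0.06. The filter's minimum was reached in all 3 KO libraries by 39 of the 41, and the other 2 passed with the help of WT libraries. The median difference was -0.91 against -0.00046 over all 14494 genes tested. With edgeR 0 of the 41 passed, beside 0.0138% of all genes called lower, and 22 were lower at an unadjusted p under 0.05, beside 8.50%. DESeq2 called 6 (Cacng1, Ldb3, Myh8, Myl1, Tnnt2 and Tnnt3), beside 2.18% of all genes, and limma 0. In 11 genes the groups did not overlap, with every KO library lower: Cacng1, Ckm, Ldb3, Myh7, Myh8, Myl4, Mylpf, Stac3, Tnnt2, Tnnt3 and Ttn. That is 11 of 41, beside 10.3% of all genes tested.

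Levels at E12.5 were highest for Tpm1, Actc1 and Mylpf. Actc1 had 270, 369 and 403 RPKM in WT and 171, 206 and 345 in KO. KO replicate 3 lay inside the WT range, and the difference was -0.53 (SE 0.30). Mylpf had 196, 277 and 336 RPKM in WT and 79.2, 108 and 185 in KO, separate groups at -1.12 (SE 0.36, edgeR adjusted p = 0.280). Tpm1 had 343, 409 and 474 RPKM in WT and 311, 307 and 399 in KO.

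Myl4 had 45.6, 80.7 and 90.2 RPKM in WT and 10.6, 20.2 and 44.1 in KO, at -1.54 (SE 0.56). Tnnc1 had 104, 160 and 179 RPKM in WT and 35.6, 53.4 and 117 in KO, at -1.11 (SE 0.48). In Myl4 the groups were just separate, while in Tnnc1 KO replicate 3 was above WT replicate 1. Actn2 had 21.7, 31.5 and 38.3 RPKM in WT and 7.61, 12.3 and 25.2 in KO, and Cryab had 15.2, 21.9 and 27.2 in WT and 8.21, 8.49 and 20.01 in KO. Srl had 14.99, 15.9 and 17.9 RPKM in WT and 11.2, 13.1 and 16.7 in KO. In these as well KO replicate 3 reached into the WT range.

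The 7 genes called at E11.5 overlapped between genotypes at E12.5. Acta2 had 49.5, 68.2 and 65.5 RPKM in WT and 40.6, 41.2 and 69.5 in KO, with KO replicate 3 the highest of all 6 libraries. Tnni1 had 33.5, 55.7 and 68.2 in WT and 14.7, 20.9 and 47.6 in KO. Tpm2 had 65.7, 84.9 and 82.5 in WT and 44.5, 43.6 and 76.9 in KO. In each of these 3, KO replicates 1 and 2 were below every WT library and KO replicate 3 was not. Myl1 had 23.4, 37.8 and 42.4 in WT and 12.55, 14.1 and 26.1 in KO, and Smyd1 had 8.93, 12.7 and 12.7 in WT and 4.78, 5.74 and 10.2 in KO. Unc45b had 5.26, 7.68 and 6.80 in WT and 3.39, 3.76 and 6.37 in KO, and Atp2a1 had 11.2, 15.01 and 15.8 in WT and 7.04, 7.29 and 12.497 in KO. The log2 fold changes of the 7 ran from -0.97 for Myl1 to -0.28 for Acta2.

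The differences furthest from 0 at E12.5 were those of Myh8 and Ckm. The perinatal heavy chain Myh8 had 2.59, 5.34 and 10.1 RPKM in WT and 0.359, 0.930 and 1.82 in KO, at -2.54 (SE 0.73, edgeR adjusted p = 0.261). Ckm, the muscle creatine kinase, had 0.414, 0.494 and 0.508 in WT and 0.0692, 0.103 and 0.137 in KO, at -2.16 (SE 0.45, edgeR adjusted p = 0.155), the lowest adjusted p of the set. Both had separate groups. Ckm had only 2, 4 and 4 fragments in the KO libraries and passed the filter with the help of WT libraries. Its sign and separation are thus in part set by the filter. Myh7 followed at -1.78, Tnnt3, the fast troponin T, at -1.61, Cacng1, a calcium channel subunit, at -1.39, and Ldb3, a Z-disc protein, at -1.33. Apart from these and Myl4, differences lay between -1.21 and 0.06. By role they ran from -2.54 to -0.72 in the thick filament, -1.21 to -0.28 in the thin filament, -1.61 to -0.30 in the troponins and tropomyosins, -1.33 to 0.06 in the Z-disc, giant and membrane-linking proteins, which include Xirp1, -2.16 to -0.25 in calcium handling and energy, and -0.86 to -0.55 in assembly.

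At E12.5 the libraries of both genotypes were uneven in these genes, with the larger median SD in KO. KO replicate 3 was the highest KO library for 39 of the 41 genes and was at or above the lowest WT library in 30. In WT, replicate 1 was the lowest library for 39 and replicate 3 the highest for 35. Without Tpm1 the summed set had 1867, 2635 and 2939 CPM in WT and 1010, 1244 and 2146 in KO. The median SD of log2(RPKM + 0.1) was 0.56 for the members in KO against 0.10 over all genes, and 0.37 against 0.13 in WT. KO replicate 3 was also the highest KO library for the myogenic factors Myog and Myod1. Myog was at 49.9, 49.5 and 83.9 RPKM in the KO libraries and 60.1, 79.7 and 68.2 in WT, and Myod1 was at 18.8, 16.5 and 26.0 in KO and 22.4, 27.7 and 22.2 in WT. Their part in the spread was not tested.

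Isoforms of a family were also set against each other within each E12.5 library, as ratios of RPKM. Of 9 isoform ratios, chosen with the values known, 7 had no overlap between WT and KO; with 3 libraries against 3 the smallest p that an exact two-sided permutation test can give is 0.1, or 0.129 after adjustment over the 9, so none could pass. How many other gene pairs separate between the genotypes in this way was not counted. Tnnt3 and Myh3 each enter more than a single ratio, so the 7 are not independent. The ratio of the slow to the fast troponin T (Tnnt1 to Tnnt3) was 4.78, 4.42 and 3.37 in WT and 8.86, 10.4 and 9.10 in KO. The KO values lay together and above all WT values. The ratio of cardiac to skeletal actin (Actc1 to Acta1) was 6.72, 5.53 and 5.39 in WT and 11.3, 9.61 and 8.18 in KO. The embryonic to perinatal heavy chain ratio (Myh3 to Myh8) was 12.6, 9.21 and 5.43 in WT and 36.6, 21.02 and 20.4 in KO, and Myh3 to Myh7 was 13.7, 13.3 and 10.5 in WT and 42.7, 24.2 and 16.9 in KO; these heavy chains share sequence, as given above. Tnnt2 to Tnnt3 was also higher in KO, at 2.12 to 2.64 against 1.26 to 1.73.

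In 2 ratios the KO values were the lower ones. Myl4 to Myl1 was 1.95, 2.14 and 2.13 in WT and 0.849, 1.44 and 1.69 in KO, and Tnnc1 to Tnnc2 was 2.71, 2.83 and 2.87 in WT and 2.19, 2.34 and 2.64 in KO. Mylpf to Myl1 and Tnni1 to Tnni2 overlapped between genotypes. KO replicate 3 had a higher summed level of the set than WT replicate 1 (2146 against 1867 CPM). That its ratio lay outside the WT range in the 7 separate ratios follows from their having no overlap. The part of the summed level in the ratios was not tested.

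**Figure D4:**
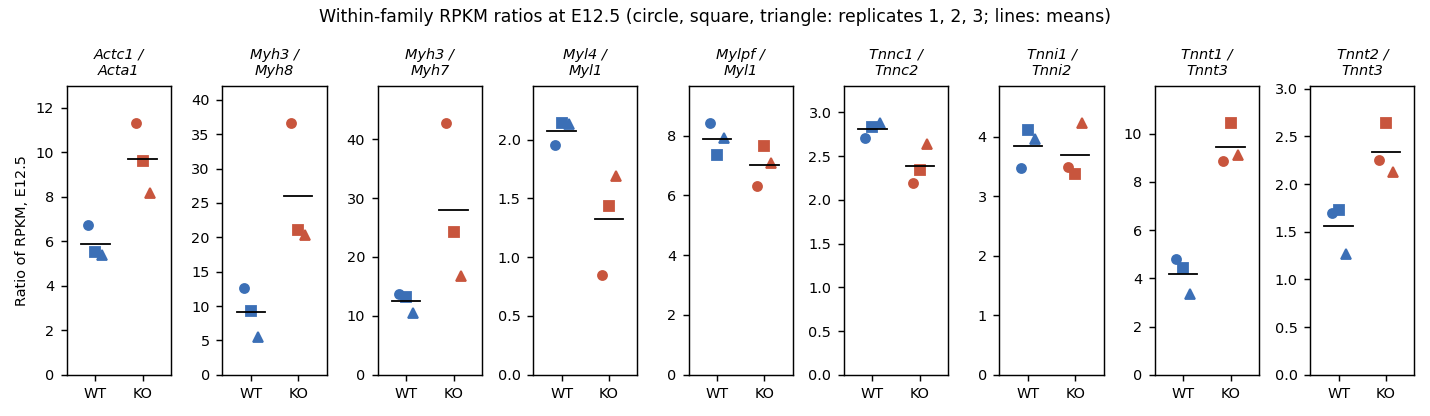
Ratio of RPKM between members of 9 isoform pairs at E12.5, per library (circle, square and triangle are replicates 1, 2 and 3; lines are means; each axis starts at 0). KO and WT points do not overlap in 7 panels; they overlap for Mylpf to Myl1 and Tnni1 to Tnni2.

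From E11.5 to E12.5 nearly all contractile genes rose in both genotypes. In WT 40 of the 41 were called higher by edgeR, beside 17.1% of all 15324 genes tested, with a median log2 change of 2.94; Dmd, at -0.24, was not. In KO 37 were called higher, beside 20.4% of all genes, with a median of 4.61; Dmd, Jsrp1, Nexn and Srl were not. Cacna1s, Cacng1, Ckm, Myh8 and Xirp1, too low to test at E11.5, entered this fit only through their E12.5 libraries, so that their rise is in part fixed by the filter; of the other 36 genes 35 were called higher in WT and 32 in KO, with medians of 2.88 and 4.22. Actc1 rose by 2.89 in WT (SE 0.67, edgeR adjusted p = 0.0112) and by 5.83 in KO (SE 0.79, edgeR adjusted p = 6.3e-04). Acta2 rose by 1.78 in WT and 4.08 in KO, Smyd1 by 2.66 and 4.95, and Tnnt3 by 3.75 and 3.18. Cacna1s and Xirp1 had no fragment in any E11.5 KO library, and against a floor of 3 fragments over that group their levels at E12.5 were at least 205-fold and 75.8-fold higher; with both at these bounds the KO median stayed 4.61. Stage and any processing of the stages in separate runs cannot be told apart.

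The KO effect itself was compared between the stages with an interaction term. The fitted difference was positive, towards a smaller KO effect at E12.5, in 34 of the 41 genes, with a median of 1.48 (1.39 with Cacna1s and Xirp1 at their bounds); among the 36 genes that could also be tested at E11.5 it was positive in 29, with a median of 1.44. Of those 36, 12 passed the E11.5 filter with the help of WT libraries, so the sign of their change is in part set by it. With edgeR 0 passed the test, beside 0.00653% of all genes called higher. At an unadjusted p under 0.05 there were 13, all positive and all among those 36, beside 5.15% of all genes, and DESeq2 called 2, Acta2 and Smyd1, beside 0.431%. The change in effect was 2.30 for Acta2 (SE 0.42, edgeR adjusted p = 0.244), 2.29 for Smyd1 (SE 0.58, edgeR adjusted p = 0.316), 2.67 for Unc45b (SE 0.73, edgeR adjusted p = 0.337) and 1.62 for Atp2a1 (SE 0.49, edgeR adjusted p = 0.374). For the other 3 called genes it was 2.23 (Myl1), 1.49 (Tnni1) and 0.38 (Tpm2). All of these genes were picked by their call at E11.5, which by itself favours a smaller effect at E12.5. In Ldb3 and Tnnt3 the sign was opposite, at -0.77 and -0.57.

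At E9.5, before limb muscle differentiates, 23 of the 41 genes could be tested and 0 were called by edgeR, DESeq2 or limma, beside 0.0217% of all genes called lower by edgeR. There were 14 negative and 9 positive differences, with a median of -0.16 against -0.0044 over all 13804 genes. In 0 of the 23 was every KO library below every WT library, beside 4.59% of all genes tested. The 18 genes too low to test were Atp2a1, Cacna1s, Cacng1, Casq2, Ckm, Klhl31, Mybph, Myh3, Myh7, Myh8, Myl1, Myl4, Neb, Stac3, Tnnc2, Ttn, Unc45b and Xirp1. At an unadjusted p under 0.05 there was 1 gene, Des, beside 1.97% of all genes higher at that p, with 10.02, 12.4 and 10.8 RPKM in WT and 14.7 in each KO library, at 0.41 (SE 0.11, edgeR adjusted p = 0.999).

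The genes with high levels at E9.5 were Tpm1, Acta2 and Actc1. Tpm1 had 486, 370 and 532 RPKM in WT and 304, 506 and 275 in KO, Acta2 had 77.8, 74.7 and 72.8 in WT and 25.5, 80.3 and 33.6 in KO, and Actc1 had 38.0, 39.8 and 46.2 in WT and 17.9, 49.8 and 22.2 in KO. In each, KO replicates 1 and 3 were below every WT library and KO replicate 2 was not. Tagln of smooth muscle had the same order, at 65.5, 67.6 and 67.2 RPKM in WT and 39.5, 81.8 and 42.4 in KO, and the summed RPKM of 8 smooth muscle markers was 85.2 to 90.2 in WT and 58.7, 106 and 61.4 in KO. The heart marker Tbx20 had this order too, with 4.44, 3.54 and 4.81 RPKM in WT and 0.840, 4.74 and 1.999 in KO. The heart marker Myl7 had the reverse order in KO, at 5.45, 3.22 and 6.34, with 2.84, 5.99 and 2.07 in WT. Summed over the 10 heart markers, KO had 7.73, 10.4 and 9.24 RPKM, which overlapped WT at 7.50 to 10.4. The part of these cell types in the actin values was not tested. Without KO replicate 2 the count of called genes went from 0 to 1, Acta2, at -1.35 (edgeR adjusted p = 0.0259). Tnni1 had 9.17, 6.95 and 5.31 RPKM in WT and 6.51, 9.67 and 6.41 in KO, and Tpm2 had 20.1, 20.6 and 13.9 in WT and 17.6, 22.5 and 20.9 in KO; both overlapped.

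Of the remaining genes described by library, Srl had 6.82, 9.12 and 9.84 RPKM in WT and 7.48, 8.19 and 7.36 in KO at E9.5. Cryab had 5.14, 2.46 and 9.05 in WT and 3.07, 8.69 and 2.91 in KO, and Mylpf had 2.54, 2.67 and 2.08 in WT and 3.29, 3.34 and 2.62 in KO. Tnnc1 had 2.29, 0.624 and 4.21 in WT and 0.884, 3.91 and 0.755 in KO. Their groups overlapped at this stage. Smyd1 was at 1.34, 1.09 and 1.28 RPKM in WT and 0.788, 1.57 and 0.666 in KO, and Actn2, Myl1, Myl4, Atp2a1 and Unc45b were at most 1.36 RPKM in every library.

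The contractile machinery has further genes that are not in the set. Of 52 further sarcomere and contraction genes, 32 were tested, 25 had a negative difference at E11.5 and 3 were called lower by edgeR, with a median of -0.56. They were Synpo2l at -1.81 (SE 0.32, edgeR adjusted p = 0.0286), the fast alpha-actinin Actn3 at -1.44 (SE 0.24, edgeR adjusted p = 0.0220) and the kinase Speg at -0.42 (SE 0.09, edgeR adjusted p = 0.0469). Actn3 had 1.87, 2.52 and 1.72 RPKM in WT and 0.881, 0.670 and 0.698 in KO. Of 26 further genes of excitation-contraction coupling and calcium, 19 were tested, 16 were negative and 0 called, with a median of -0.35. Over all genes tested at E11.5, 52.1% were negative and 1.01% called lower. How many genes of these lists passed the filter with the help of WT libraries was not counted. At E12.5 the differences were negative in 42 of 43 and 23 of 23 tested genes of these lists, with medians of -0.65 and -0.72 and 0 called in either. Over all genes tested at E12.5, 50.1% were negative and 0.0138% called lower.

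Genes of muscle precursors and their regulators were lower at E11.5 as well. All 20 tested of 22 had a negative difference, with a median of -0.84, and 6 were called lower by edgeR. The shares over all genes were 52.1% negative and 1.01% called lower. Msc, a bHLH factor of muscle precursors, was at 9.996, 8.12 and 7.84 RPKM in WT and 2.93, 3.85 and 3.10 in KO (-1.39, SE 0.17, edgeR adjusted p = 0.00775). Pax7, a marker of muscle progenitors, was at 0.486, 0.430 and 0.329 in WT and 0.0873, 0.0469 and 0.0209 in KO (-2.95, SE 0.49, edgeR adjusted p = 0.0238). Their groups were well apart. The precursor gene Pax3 overlapped, at 2.34, 1.54 and 2.96 RPKM in WT and 1.05, 1.96 and 2.62 in KO. The transcription factor Mef2d (-0.62, edgeR adjusted p = 0.0247) and the cadherin Cdh15 (-1.22, edgeR adjusted p = 0.0328) were called too. Myog, the differentiation factor, was at 24.0, 26.8 and 10.2 RPKM in WT and 6.95, 3.45 and 2.82 in KO. Summed over the list, WT had 161, 167 and 128 RPKM and KO 87.9, 89.1 and 91.1, so WT replicate 3 was the lowest WT library here too. At E12.5, 16 of 22 were negative, with a median of -0.22 and 0 called. Pax3 was then higher in every KO library than in any WT library, at 0.597 to 0.884 RPKM against 0.263 to 0.577.

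Markers of other muscle types gave 0 called genes at E11.5. Of 8 smooth muscle markers 7 were tested and all were negative, with a median of -0.61; their summed RPKM was 20.5 to 34.3 in WT and 15.9 to 17.8 in KO, and the defining heavy chain Myh11 was at most 0.108 RPKM. Of 10 heart markers 2 were tested, and Nppa was at 0. How far smooth muscle cells share in the Acta2 values was not tested.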

How the data were processed

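Per the labels' protocols, total RNA was made into stranded TruSeq mRNA libraries and sequenced on a NextSeq instrument. FastQC, TopHat2 and Cuffdiff were run on build mm9, per the submitters' processing notes; none of the sources used here names versions, annotation or strand setting. The authors deposited 1 Cuffdiff table per stage, which holds, per the file headers, raw fragments (estimated counts, of which 1.79% were not whole) and RPKM values, scaled by the authors to gene length and library size. The tables number replicates from 0; replicates 1 to 3 here follow that order, which no label states.

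Fragments were rounded. Of 23927 names, 2 listed more than once and 6 genes with a failed status and no fragments were left out. edgeR 4.0.16 (R 4.3.3; TMM, filterByExpr, robust quasi-likelihood fit) was fitted over all genes per stage, and over the 12 libraries of E11.5 and E12.5 for stage and interaction, after a test on simulated data. Adjusted p-values are Benjamini-Hochberg over all genes tested; SE is the log2 fold change over the root of F. RPKM gives levels only. Alternatives were RLE scaling, no filter, a replicate block, DESeq2 1.42.0, all 18 libraries, limma 3.58.1 on log2(RPKM + 1) and log2(RPKM + 0.1), and each library left out. No 2 libraries of a group agreed within counting noise (chi-square per degree of freedom at least 8.26).

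The members and lists were chosen with earlier results of these data known. Every member is named. Values by library are given for members past the threshold at any stage and for the 2 highest by WT level in each role group; Des, Myh8, Ckm, Acta1 and Cacna1s, and the isoform ratios, were singled out after their values were seen. Of other lists, up to 4 called genes are described; 1 gene of these lists is not reported here. Shared sequence was counted in 50-base windows of GENCODE M21 transcripts.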

Additional observations from a re-analysis of the deposited data

How the results depend on the processing

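The number of contractile genes called at E11.5 was 7 with RLE scaling and without a filter, 5 with limma at either pseudocount, 19 with DESeq2, 21 in the fit over all 18 libraries and 0 to 19 with 1 library left out; the cause was not tested. At E12.5 it was 6 with DESeq2 and 0 under the other settings without a block, each library left out in turn included. For the change of the KO effect between the stages DESeq2 called 2, and at E9.5 the count was 0 to 1 with 1 library left out. The rise from E11.5 to E12.5 was called for 35 to 40 genes in WT and 36 to 39 in KO under every alternative run. Shares over all genes are not given beside these counts, apart from those stated in the sections above. At E11.5 the 21, and the 19 without WT replicate 3, include Cacna1s, which had no fragment in any KO library of that stage.

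Replicate numbers are shared between the genotypes. Over all genes same-numbered libraries did not deviate together in every pair (correlations of -0.392 to 0.234 over the 3 stages), and 0, 2 and 4 of 6 libraries correlated best with their own number at the successive stages. Over the contractile genes alone the correlations were 0.101, 0.498 and 0.513 at E11.5 and 0.47, -0.54 and 0.592 at E12.5. With the number as a block, 13 genes were called lower at E11.5, beside 0.521% of all genes, and 6 of the 7 were among them; Tpm2, at -0.93 (edgeR adjusted p = 0.0598), was not. With the block 16 were called lower at E12.5, beside 2.19% of all genes, with Myh8 (edgeR adjusted p = 1.58e-04), Ttn (0.00284) and Tnnt3 (0.00289) the lowest in adjusted p.

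At E9.5 some differences that were not called changed sign with 1 library left out: Actn2 ranged from -0.47 to 0.32, Cryab from -0.88 to 0.37, Tnnc1 from -1.52 to 0.29 and Tnni1 from -0.15 to 0.32. At the depth of E9.5, 18 members were too low to test.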
